A study of Rattus norvegicus with 6 samples.

Results

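The genes described here encode the plasma proteins that the liver secretes, namely acute phase reactants, carriers, protease inhibitors, clotting factors and complement components. The list held 48 gene symbols, and every probe set annotated to 1 of them alone was taken. It gave 53 probe sets of 44 genes, out of 9200 genes tested on the array. Amotl2 stands on the list although it encodes a scaffold protein of cell junctions and no plasma protein, so it is kept apart from the role groups. Liver RNA came from 6 male BrlHan:WIST@Jcl(GALAS) rats, bought at 4 weeks, quarantined for 1 week and 7 weeks old when sampled. The 3 control rats were given a powdered diet with no test compound, and the diet of the 3 treated rats held the pyrethroid insecticide epsilon-momfluorothrin for 2 weeks. The labels give its level as 3000 ppm in some fields and 5000 ppm in others, so the dose is uncertain. Each rat had 1 Affymetrix array, and the values are MAS5 signals, a linear measure of probe set brightness with no physical unit.

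Hepatocytes make most proteins of the plasma. In the acute phase response, cytokines of the interleukin 6 and interleukin 1 families reach the hepatocyte and act through STAT3, NF-kappaB and C/EBP factors on the promoters of these genes. Positive reactants such as alpha-2-macroglobulin, haptoglobin and fibrinogen then increase in plasma, while negative reactants such as albumin and retinol-binding protein decrease. Clotting factors and complement components form cascades of proteases that are held in check by serpins, a family of protease inhibitors.

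Promoter sequences are shown for Mbl2 and Hpx, which had the smallest p-values of the list, and for the 3 fibrinogen chains, whose products assemble into 1 protein and can be compared as a unit. Each line gives 250 bases that end just before the annotated gene start, read 5′ to 3′ on the gene's strand, from RefSeq on build GRCr8. Capitals mark matches, on either strand, to the letters TTCNNNGAA (STAT core), CTGGGAA (type II interleukin 6 response element), TTNNGNAA (C/EBP) and GTTAAT (HNF1 half-site). Matches to different letters may overlap.
Mbl2 (chr1:237430793-237431042, plus strand): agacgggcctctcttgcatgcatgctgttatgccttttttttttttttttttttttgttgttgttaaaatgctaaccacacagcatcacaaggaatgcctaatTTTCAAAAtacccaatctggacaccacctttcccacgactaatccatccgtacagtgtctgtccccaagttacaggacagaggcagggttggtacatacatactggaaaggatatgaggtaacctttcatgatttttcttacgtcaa
Hpx (chr1:169352156-169352405, minus strand): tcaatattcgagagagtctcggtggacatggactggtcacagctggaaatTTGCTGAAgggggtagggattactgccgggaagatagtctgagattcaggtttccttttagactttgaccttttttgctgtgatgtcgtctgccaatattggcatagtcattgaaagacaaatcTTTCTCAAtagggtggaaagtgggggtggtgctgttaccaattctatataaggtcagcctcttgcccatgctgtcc
Fga (chr2:170671919-170672168, plus strand): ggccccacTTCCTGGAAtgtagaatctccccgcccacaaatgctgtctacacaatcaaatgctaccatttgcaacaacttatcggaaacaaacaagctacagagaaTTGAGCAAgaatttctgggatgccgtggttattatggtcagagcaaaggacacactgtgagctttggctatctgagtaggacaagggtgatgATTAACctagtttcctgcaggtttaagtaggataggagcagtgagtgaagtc
Fgb (chr2:170700876-170701125, minus strand): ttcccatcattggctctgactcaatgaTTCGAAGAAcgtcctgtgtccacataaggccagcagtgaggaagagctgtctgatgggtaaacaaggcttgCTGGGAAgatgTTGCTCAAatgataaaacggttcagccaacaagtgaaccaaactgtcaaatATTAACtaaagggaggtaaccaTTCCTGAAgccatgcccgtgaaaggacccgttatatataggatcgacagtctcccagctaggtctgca
Fgg (chr2:170652833-170653082, plus strand): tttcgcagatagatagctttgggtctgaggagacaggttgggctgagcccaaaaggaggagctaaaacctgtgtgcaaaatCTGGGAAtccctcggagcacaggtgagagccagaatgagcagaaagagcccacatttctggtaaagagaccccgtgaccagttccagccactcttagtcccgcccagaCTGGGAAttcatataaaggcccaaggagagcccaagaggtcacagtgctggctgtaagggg

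Fgg held 2 matches to CTGGGAA and Fgb 1, and Fga had none in this window. Fga and Fgb each held 1 match to TTCNNNGAA, and Fgg held none. In Mbl2 and Hpx the only matches were to the C/EBP letters. RefSeq promoter windows were found for 38 of the 48 listed genes. Of these, 11 (28.9%) held CTGGGAA, against 9.33% of 27457 promoters of all genes. TTCNNNGAA was present in 7 (18.4%, against 7.52%), TTNNGNAA in 26 (68.4%, against 36.8%) and GTTAAT in 10 (26.3%, against 6.46%). These matches describe letters and not binding.

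The 6 arrays shared nearly the same trimmed mean signal, with median signals of 27.0 to 29.4 in control and 23.1 to 26.5 in treated livers. Over kept probe sets the arrays correlated at r = 0.964 to 0.970 within control, 0.972 to 0.974 within treated and 0.958 to 0.971 between groups. All 44 genes had a representative probe set, the brightest kept one, above the median of the array on all 6 arrays, so none was lost to the filter on dim signals.

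No plasma protein gene passed the test. In limma, adjusted over 15778 probe sets, the smallest adjusted p of the 44 genes was 0.159, and the calls among all genes were 0.0217% lower and 0.196% higher. Most of the list lay slightly below control. In whole liver, fewer cells of a type and less RNA per cell cannot be told apart. The log2 difference, treated minus control, was below 0 for 40 of 44 genes, with a median of -0.14 against -0.01 over all 9200 genes. At an unadjusted p under 0.05 in limma, 17 of the 44 (38.6%) were lower and none higher, beside 6.18% and 6.05% of all genes. The 3 treated arrays lay below all 3 control arrays for 20 genes (45.5%, beside 9.23% of all genes) and above them for none (9.04% of all genes).

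The size of these counts rested on scaling, on the variance model and on single arrays. With quantile normalization 7 genes were lower at an unadjusted p under 0.05 and 9 did not overlap, with median centring 10 and 13. The first count was 8 without a filter on dim signals and 7 without an intensity trend. Leaving out control replicate 2 gave 7, and leaving out treated replicate 1 gave 10. Of the 20 genes lower without overlap, 7 kept a difference within 1.5 times under quantile normalization (Mbl2, C5, C6, Serpind1, A2m, F9 and Itih1), 12 became smaller by more than that and Hp changed sign. The median of the list stayed below 0 in these settings, at -0.06 with quantile normalization and -0.11 with median centring.

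The treated arrays were not alike. Treated replicate 1 was the lowest of the 6 arrays for 32 of the 44 genes (72.7%), whereas it was lowest for 14.5% of all genes and 37.0% of the 119 other genes with a mean signal over 4000. Relative to the control mean, the median gene of the list stood at -0.24 on the log2 scale in treated replicate 1, -0.13 in replicate 2 and -0.06 in replicate 3. Control replicate 2 was the highest array for 21 genes (47.7%), beside 47.1% of those 119 other bright genes, and control replicate 3 for 17 (38.6%, beside 19.3%). Without treated replicate 1 the median over the list was -0.10. In that setting 20 genes did not overlap, where 15.9% of all genes lay lower without overlap.

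**Figure D1:**
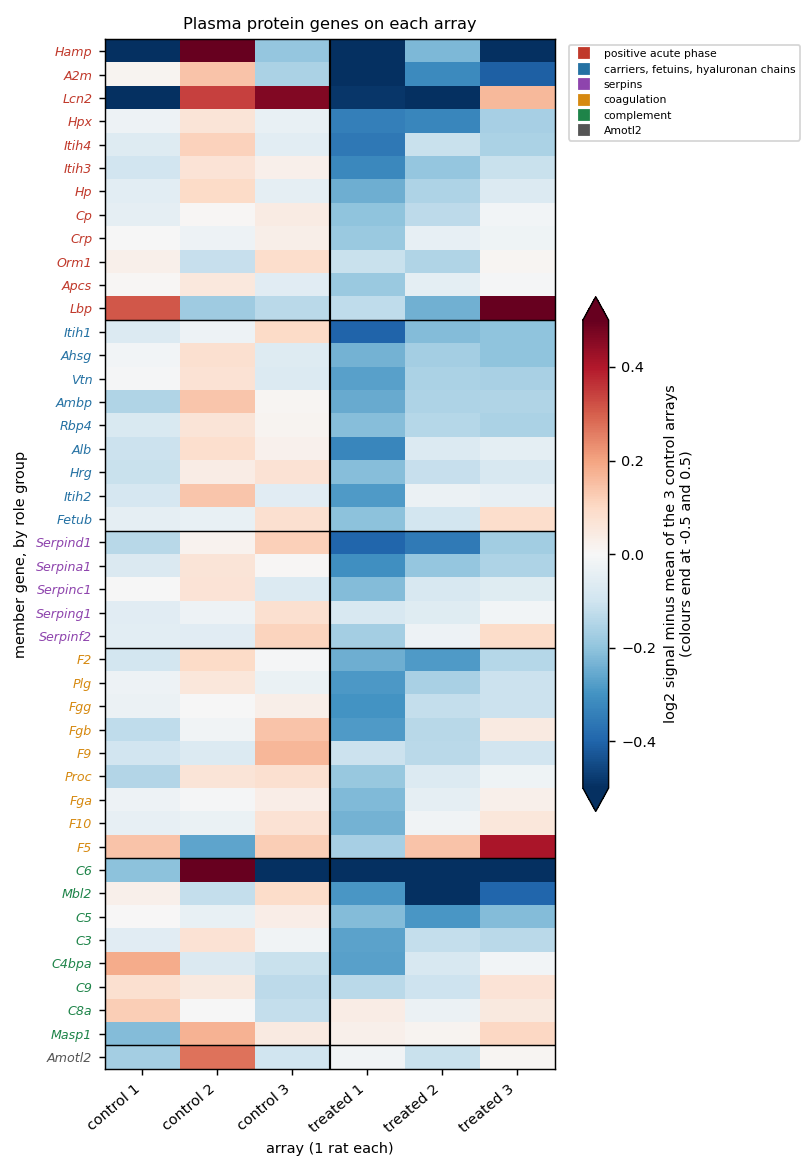
Log2 signal of 44 genes (vertical axis, coloured by role group) on each of 6 arrays (horizontal axis, 1 rat each), minus the mean of the 3 control arrays of that gene. Blue cells are the majority in each treated column and are darkest in treated replicate 1, the lowest array for 32 of the 44 genes. They are palest in treated replicate 3 (median -0.06), where some genes, such as Fga, Fgb and F5, lie above their control mean.

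Brightness of the probe set moved with the same difference, so the genes were set beside other genes of equal brightness. Of the 44 genes, 35 lay above the 95th percentile of mean signal. The 200 other genes nearest in mean signal had median log2 differences of -0.06 to 0.07. After that local median was subtracted, the list had a median of -0.10, with 38 genes below 0 and 6 above, and 22 genes lay within 0.1 of their neighbours. At the bright end the neighbours are on average dimmer than the member. Among genes with a mean signal over 8000, the 11 members had a median of -0.17 and 8 of them (72.7%) did not overlap, and the 25 other genes had a median of -0.15 and 13 (52%) did not overlap. Other genes, here and wherever signals over 4000 are compared, are all those outside the list, so they include further plasma protein genes. Gc, Pzp, Selenop, Apoh and Ttr are such genes over 8000, each lower without overlap. Between 6000 and 8000 the medians were -0.16 for 10 members and -0.08 for 39 other genes, and 50% and 30.8% lay lower without overlap. Between 4000 and 6000 the medians were -0.08 for 7 members and -0.02 for 55 other genes, and 28.6% and 14.5% lay lower without overlap. The hybridisation control Cre, a phage transcript that is no part of the rat RNA and is read by 4 probe sets with signals over 6000, had log2 differences of -0.14 to -0.07 and lay lower without overlap in 3 of 4. The part of brightness in the small differences of the list was not tested.

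**Figure D2:**
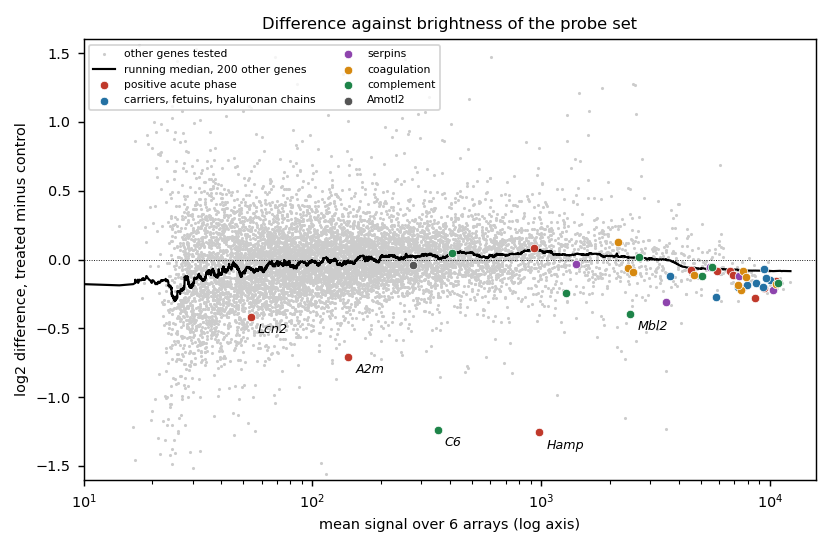
Log2 difference, treated minus control (vertical axis), against mean signal over 6 arrays (horizontal log axis) for 44 plasma protein genes coloured by role group and for other genes in grey, with the running median of 200 other genes as a black line. Most coloured points lie at the bright end just under the line, and Hamp, C6 and A2m lie far below it. The axis leaves out 20 grey points.

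Among 12 measured positive acute phase genes, 11 lay below 0 (median -0.18), beside 52.5% of all genes. Of other genes with a mean signal over 4000, 73.1% lay below 0. In limma 4 of the 12 were lower at an unadjusted p under 0.05 (33.3%) and none passed the adjusted threshold. The share lower at that p was 6.18% over all genes and 18.5% over other genes with a mean signal over 4000. The heme-binding protein gene Hpx had signals of 9302, 9906 and 9242 in the controls, listed from replicate 1, against 7485, 7559.9 and 8456 with treatment. Every treated value was lower than every control value, and the means were 9483 ± 367 in control and 7834 ± 540 in treated livers (SD, n = 3). Its log2 difference was -0.28 ± 0.07 (SE, limma adjusted p = 0.219), and it was -0.13 with quantile normalization. Relative to the 200 genes nearest in brightness it was -0.22, but at this signal those genes are on average dimmer. The 25 other genes with a mean signal over 8000 had a median of -0.15. A2m, the protease inhibitor alpha-2-macroglobulin that is a major acute phase protein of the rat, had 185, 203 and 164 in the controls against 69.7, 147 and 138 with treatment. Treated replicate 1 stood far below the rest. The log2 difference of -0.71 ± 0.26 (SE, n = 3, limma adjusted p = 0.366) became -0.36 without that array.

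Hamp encodes hepcidin, the hormone that limits iron release into plasma, and was the most variable gene of the group. Its signals were 731, 3613 and 1328 in the controls against 366, 1302 and 539 with treatment. The groups overlapped, with control replicate 2 far above all others. The log2 difference was -1.26 ± 0.58 (SE, n = 3, limma adjusted p = 0.456), with a 95% interval of -2.58 to 0.07, and it was -0.63 without control replicate 2. Hp, which encodes the haemoglobin-binding haptoglobin, had 10800.1, 11953 and 10856 in the controls against 9451, 10053 and 10684 with treatment. These groups did not overlap, by a narrow margin, and the log2 difference of -0.16 ± 0.07 (SE, limma adjusted p = 0.461) turned to 0.01 with quantile normalization.

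The inter-alpha-inhibitor heavy chain genes Itih3 and Itih4, which encode members of one family of secreted proteins, were lower without overlap. Itih3 had 9482, 10638 and 10328 in the controls against 8099, 8875 and 9380.4 with treatment, a log2 difference of -0.21 ± 0.08 (SE, n = 3, limma adjusted p = 0.371). For Itih4 the signals were 7747, 8783 and 7824 against 6325, 7498 and 7254, with -0.21 ± 0.09 (adjusted p = 0.418). Quantile normalization gave -0.06 for Itih3 and -0.11 for Itih4, and Itih4 was -0.14 without treated replicate 1. The classical reactants Crp and Orm1 differed little. Crp, a pentraxin that circulates at a high level in healthy rats, had 6030.4, 5929 and 6167 in the controls against 5314, 5867 and 5950.1 with treatment, and its groups overlapped (log2 -0.08 ± 0.07, 95% interval -0.24 to 0.07). Orm1, which encodes alpha-1-acid glycoprotein, had 7028, 6369.6 and 7339 against 6387, 6224 and 6953, also with overlap. Its log2 difference of -0.08 ± 0.08 had an interval of -0.26 to 0.09 and turned to 0.02 with quantile normalization.

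The other members of this group overlapped between the groups. They were the pentraxin Apcs (-0.08 ± 0.07), the copper-carrying ferroxidase Cp (-0.12 ± 0.07), the lipopolysaccharide-binding protein Lbp (0.08 ± 0.22) and the siderophore-binding lipocalin Lcn2 (-0.41 ± 0.37, log2 ± SE). The brightest 2 of the 3 probe sets of Cp lay below 0 and the dimmest above it, and the brightest turned to 0.0057 with quantile normalization. That dim probe set had 391.8, 319.7 and 382 in the controls against 396, 521 and 538 with treatment, higher without overlap, a log2 difference of 0.40 ± 0.14 (SE, n = 3, limma adjusted p = 0.333). It is named after its values were seen. The value of Lcn2 lay between -0.82 (without control replicate 1) and -0.16 (without treated replicate 2) when 1 array was left out. Lcn2 is also a neutrophil gene. Of 5 neutrophil markers 2 had a probe set, with a summed signal of 21.3 to 31.4 in control and 24.5 to 39.6 in treated livers, and S100a8 was dim on all arrays.

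All 9 measured genes of carriers, fetuins and constitutive inter-alpha-inhibitor chains lay below 0 (median -0.17), and none passed the adjusted threshold. In limma 4 were lower at an unadjusted p under 0.05 (44.4%), beside 6.18% of all genes and 18.5% of other genes with a mean signal over 4000. Alb, the gene of serum albumin, had 9787, 11178 and 10717 in the controls against 8412, 10047 and 10191 with treatment. Its groups overlapped, and treated replicate 1 was the lowest array. The log2 difference was -0.15 ± 0.09 (SE, n = 3, limma adjusted p = 0.566), with a 95% interval of -0.35 to 0.06. It became -0.0041 with quantile normalization and -0.06 without treated replicate 1. A further Alb probe set gave -0.10 ± 0.11. Itih1, a heavy chain that is transferred to hyaluronan, had 6076, 6256 and 6801 against 4832, 5480.1 and 5546, with no overlap (log2 -0.27 ± 0.08, adjusted p = 0.267).

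Ahsg encodes fetuin-A, a calcium-mineral carrier and negative reactant. Its signals were 9926, 10616 and 9585 in the controls against 8508, 8916 and 8737 with treatment, again without overlap, and its log2 difference was -0.20 ± 0.07 (SE, n = 3, limma adjusted p = 0.305). The retinol carrier Rbp4 showed the same order, with 8788, 9689 and 9342 against 7988, 8399.7 and 8300.4 (log2 -0.17 ± 0.07). Vtn, the adhesive glycoprotein vitronectin, had 7721, 8156 and 7399 against 6422, 6944 and 6935 (log2 -0.20 ± 0.07). In each of these genes all treated arrays were the lower ones, and the fitted means differed by -13.1% to -11.2%. With quantile normalization the log2 differences were -0.06 for Ahsg, -0.04 for Rbp4 and -0.08 for Vtn. Ambp, the common precursor of alpha-1-microglobulin and bikunin, was lower without overlap at 7634, 9314 and 8525 against 7100.0, 7613 and 7626 (log2 -0.19 ± 0.08, adjusted p = 0.44), with -0.06 after quantile normalization and -0.12 without control replicate 2. The differences of Hrg (-0.14 ± 0.07), Itih2 (-0.12 ± 0.10) and Fetub (-0.07 ± 0.09) overlapped, and those of Hrg and Fetub turned to 0.0019 and 0.07 with quantile normalization.

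Of the 5 serpins, all lay below 0 (median -0.12) and 2 were lower without overlap, where 9.23% of all genes and 27.7% of other genes with a mean signal over 4000 were so. Serpind1 encodes heparin cofactor II, an inhibitor of thrombin. It had 3568, 3973 and 4258 in the controls against 2981, 3073 and 3477 with treatment, with the highest treated array just below the lowest control array. The means were 3933 ± 347 in control and 3177 ± 264 in treated livers (SD, n = 3), a log2 difference of -0.31 ± 0.09 (SE, limma adjusted p = 0.272) and -0.31 relative to genes of equal brightness. Serpina1, the gene of the elastase inhibitor alpha-1-antitrypsin, had 10658, 11704 and 11254 against 9042, 9798 and 10067 (log2 -0.22 ± 0.07, adjusted p = 0.304), and the difference was -0.06 with quantile normalization. The inhibitors of thrombin and factor Xa (Serpinc1, -0.12 ± 0.07), of complement C1 proteases (Serping1, -0.05 ± 0.07) and of plasmin (Serpinf2, -0.03 ± 0.09) overlapped between the groups, and their sign turned in quantile normalization (0.0044 for Serpinc1, 0.02 for Serping1) or in median centring (0.0016 for Serpinf2).

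The coagulation group held 9 measured genes, of which 8 lay below 0 (median -0.11) and none passed. In limma 3 were lower at an unadjusted p under 0.05 (33.3%). The share lower at that p was 6.18% over all genes and 18.5% over other genes with a mean signal over 4000. The 3 fibrinogen chains, shown above with their promoters, had small differences of one sign. Fga, the alpha chain, had 7684, 7786 and 8005 in the controls against 6712, 7585 and 7964 with treatment. Fgb, the beta chain, had 7543, 8157 and 9112 against 6782, 7486 and 8501. Fgg, the gamma chain, had 11049.6, 11266 and 11490.1 against 9156, 10374 and 10454. Only Fgg of the 3 did not overlap, and in each chain treated replicate 1 was the lowest array. The log2 differences were -0.08 ± 0.08, -0.13 ± 0.10 and -0.18 ± 0.07 (SE, n = 3, adjusted p = 0.719, 0.663 and 0.409 in limma). With quantile normalization they became 0.04, -0.01 and -0.02, and without treated replicate 1 -0.01, -0.05 and -0.11, in that order. A dimmer Fga probe set gave 0.05 ± 0.12. A pair of further Fgb probe sets was too dim to be kept.

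F2, the gene of prothrombin, had 7583, 8617 and 8049 in the controls against 6818, 6627 and 7318 with treatment without overlap, a log2 difference of -0.22 ± 0.07 (SE, n = 3, limma adjusted p = 0.318). Plg, the precursor of the clot-dissolving enzyme plasmin, showed 7594, 8035 and 7540.0 against 6334, 6899.7 and 7172, also without overlap (log2 -0.18 ± 0.07, adjusted p = 0.385). With quantile normalization F2 was -0.10 and Plg -0.06. The intrinsic pathway factor F9 had 4542, 4622 and 5436 against 4507, 4421 and 4533. Its treated values lay just under the lowest control value, and the difference of -0.11 ± 0.08 was far from the threshold (adjusted p = 0.632). Control replicate 3 was the high array, and without it the difference was -0.03. Factor X (F10, -0.07 ± 0.09, 0.02 without treated replicate 1), protein C (Proc, -0.09 ± 0.09) and factor V (F5, 0.13 ± 0.16) overlapped between groups. F5 had the highest log2 difference of the 44 genes by representative probe set, and its 95% interval of -0.23 to 0.48 included 0.

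Of 8 measured complement genes, 6 lay below 0 (median -0.15). In limma 4 were lower at an unadjusted p under 0.05 (50%) without passing the adjusted threshold. The share lower at that p was 6.18% over all genes. Among other genes it was 6.53% at a mean signal of 1000 to 4000 and 18.5% over 4000. Mbl2, the mannose-binding lectin that starts the lectin pathway, had the smallest p of the whole list. Its signals were 2869.7, 2595 and 3006 in the controls against 2306, 1997 and 2143 with treatment, so that every treated array lay well below the lowest control array. The means were 2824 ± 210 in control and 2149 ± 154 in treated livers (SD, n = 3), and the fitted geometric means differed by -23.9%. Its log2 difference was -0.39 ± 0.09 (SE, 95% interval -0.59 to -0.20, adjusted p = 0.159 in limma), and -0.41 relative to genes of equal brightness. A second Mbl2 probe set gave 618, 518 and 627 against 459, 461 and 470.2, again without overlap (log2 -0.34 ± 0.10, adjusted p = 0.26). The difference lay between -0.45 and -0.34 whichever array was left out, with adjusted p of 0.119 to 0.413 over all alternatives.

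C6 and C5 belong to the terminal pathway that assembles the membrane attack complex. C6 had 471, 985 and 345 in the controls against 320.4, 204 and 186 with treatment. No treated value reached the lowest control value, although control replicate 2 was far above the other controls. Its log2 difference was -1.24 ± 0.35 (SE, n = 3, limma adjusted p = 0.254), and -0.81 without control replicate 2. C5 had a tight spread, with 1401, 1364 and 1432 against 1204, 1144 and 1205. The groups lay apart by more than their spread, and the log2 difference was -0.24 ± 0.07 (SE, limma adjusted p = 0.272), -0.28 relative to genes of equal brightness. The later components overlapped between the groups, at 0.02 ± 0.08 for C8a and -0.06 ± 0.09 for C9. Outside the list, the C8 chains gave -0.19 ± 0.14 for C8b, where treated replicate 1 was low, and -0.01 ± 0.07 for C8g, also with overlap.

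C3, on which all complement pathways converge, had 11139, 12167 and 11452 in the controls against 9629, 10656 and 10536 with treatment without overlap, a log2 difference of -0.17 ± 0.07 (SE, n = 3, limma adjusted p = 0.401) that became -0.01 with quantile normalization. C4bpa, the alpha chain of the C4b-binding inhibitor, overlapped at -0.12 ± 0.10. Masp1, a protease that binds mannose-binding lectin, had 3 probe sets that disagreed. The brightest gave 0.05 ± 0.11 and the dimmest 0.11 ± 0.28, while the third had 204, 157 and 143 in the controls against 198, 299.8 and 299 with treatment. That probe set was high in treated replicates 2 and 3 and overlapped control in replicate 1 (log2 0.65 ± 0.19, adjusted p = 0.268 in limma), and it is named after its values were seen.

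**Figure D3:**
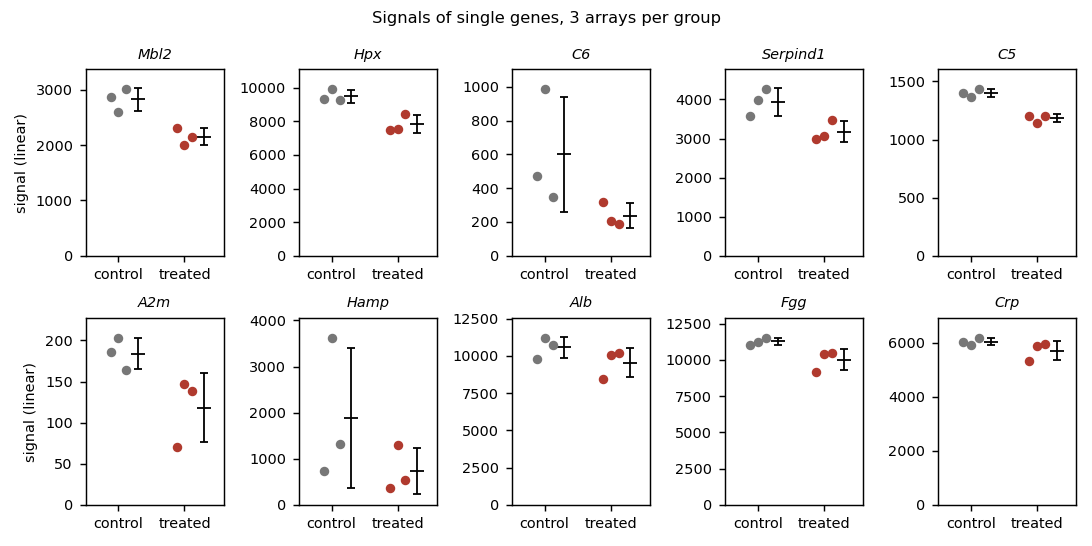
Signal (vertical axis, linear from 0) of 10 plasma protein genes in 3 control and 3 treated livers, with 1 point per rat and the mean with SD beside the points. Mbl2, Hpx and C5 show a gap between the groups, the Serpind1 groups nearly touch, C6 and Hamp have 1 high control array (984.6 and 3613), and Alb, Fgg and Crp show small differences led by treated replicate 1.

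Amotl2 had 248, 336 and 260.2 in the controls against 276, 258 and 281 with treatment, overlapping throughout (log2 -0.04 ± 0.13, SE, n = 3). Tf, Cfb, Saa4 and F7 had no probe set of their own and were left out of the counts. The transferrin gene Tf shared its probe sets with Srprb, and the brighter of them had 10933, 12280.1 and 12120.3 against 9875, 10895 and 11459 (log2 -0.13 ± 0.08). Cfb, complement factor B, shared 4 probe sets with C2, of which the brightest lay at -0.14 ± 0.08 and the others between -0.21 and 0.03. A probe set of Saa4 and Hps5 gave -0.19 ± 0.12. None of these shared probe sets passed the threshold, and the signal of each cannot be divided between its genes.

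Other genes of the same systems were compared to place the list. Of 22 further plasma protein genes tested, 19 lay below 0 (median -0.16) and none passed. In limma 7 were lower (31.8%) and 1 higher (4.55%) at an unadjusted p under 0.05, beside 6.18% and 6.05% of all genes. Of all genes outside the list with a mean signal over 4000, 18.5% were lower at that p, and some of these 22 are among them. Fgl1, a secreted fibrinogen-like protein of hepatocytes, stood out with 4796, 4791 and 4455 in the controls against 2675, 2221 and 3216 with treatment. Its groups were far apart, with a log2 difference of -0.81 ± 0.12 (SE, n = 3, limma adjusted p = 0.053), just short of the threshold. The vitamin E-binding protein gene Afm had 5211, 5723 and 5479 against 4469.8, 4678 and 4546, lower without overlap (log2 -0.26 ± 0.07, adjusted p = 0.218).

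Of 15 further complement genes tested, 12 lay below 0 (median -0.09) and none passed. In limma 4 were lower (26.7%) and 1 higher (6.67%) at an unadjusted p under 0.05, beside 6.18% and 6.05% of all genes. C4bpb, the beta chain of the C4b-binding protein, had 2117, 2169 and 2386 in the controls against 1473, 1597 and 1732 with treatment. It was lower without overlap at -0.48 ± 0.09 (SE, n = 3, limma adjusted p = 0.104), while the alpha chain C4bpa overlapped, and the difference between the chains was not tested. Cfp, the complement activator properdin that leukocytes make, had 95.9, 92.8 and 88.7 against 71.3, 60.9 and 71.3 (log2 -0.45 ± 0.13, adjusted p = 0.258). Of 12 further coagulation genes tested, 5 lay below 0 (median 0.08) and 1 was higher at an unadjusted p under 0.05 (8.33%, beside 6.05% of all genes). That was Serpina5, the protein C inhibitor (0.68 ± 0.24, adjusted p = 0.34). Its signals were dim, at 23.2, 35.5 and 28.1 in the controls against 54.5, 43.7 and 40.0 with treatment. Control replicates 1 and 3 lay below the median of their arrays. Next came Ggcx, the carboxylase that activates vitamin K-dependent factors (0.19 ± 0.12, adjusted p = 0.595).

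The genes of cytokine signalling and transcription factors lay mostly on the other side of 0. Of 14 tested, 11 were above 0 (median 0.20) and 21.4% below, beside 47.5% of all genes above. Their signals ran from 23.1 to 2392, with 453 in the middle. Genes outside the plasma protein list whose brightness fell between 200 and 1000 leaned the same way, though less. Only 41.8% of them were below 0, and their middle value was 0.03. The signalling genes were not set beside genes of equal brightness 1 by 1. At an unadjusted p under 0.05, 3 of the 14 were higher (21.4%, beside 6.05% of all genes) and none lower, and none passed the adjusted threshold. Nfkb1, a subunit of NF-kappaB, had 167, 190.2 and 158 in the controls against 219, 221 and 249.6 with treatment without overlap (log2 0.42 ± 0.11, SE, n = 3, adjusted p = 0.233 in limma). Cebpb, a C/EBP factor of the acute phase, had 744, 1110.2 and 495 against 1194, 1671 and 1103, and 1 treated array lay below the highest control array (log2 0.81 ± 0.27, adjusted p = 0.318). Il6r, the interleukin 6 receptor, is named after its values were seen. It had 408, 389 and 341 against 421, 517 and 649, higher without overlap (log2 0.46 ± 0.15, adjusted p = 0.322). Stat3 and its feedback inhibitor Socs3, given for their place in the pathway, overlapped at 0.18 ± 0.14 and -0.34 ± 0.34. The cytokine genes Il1b, Il6 and Tnf were too dim to be tested.

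**Figure D4:**
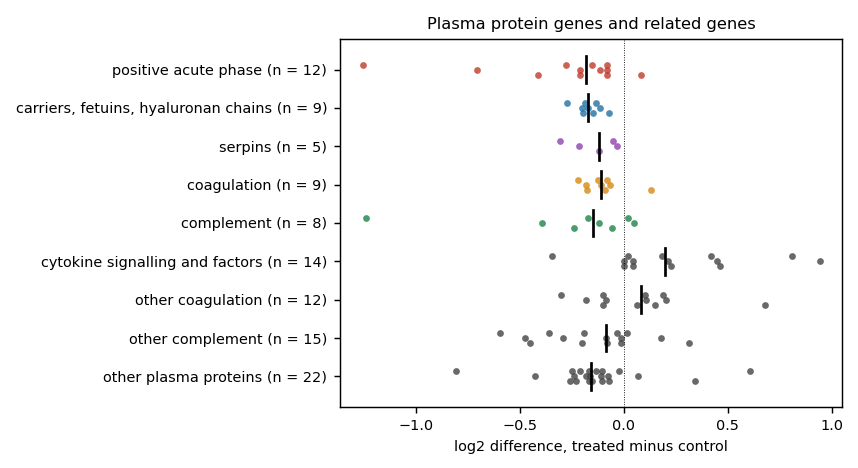
Log2 difference, treated minus control (horizontal axis), with 1 point per gene for 5 role groups of plasma protein genes (coloured) and 4 lists of related genes (dark grey), where black bars are medians. The 5 coloured medians lie between -0.18 and -0.11, the other plasma proteins at -0.16 and the signalling genes at 0.20.

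Markers of the cell types in liver were measured beside these genes. Of 10 hepatocyte markers 9 had a probe set, and their summed signal was 60034 to 68278 in control and 55542 to 60825 in treated livers, which overlapped. Of these, 8 lay below 0 (88.9%) and none passed the adjusted threshold. The share below 0 was 52.5% over all genes and 73.1% over other genes with a mean signal over 4000. Cps1 and Ttr were lower without overlap (22.2%), beside 9.23% of all genes and 27.7% of other genes with a mean signal over 4000. Ttr is also counted among the further plasma protein genes. The summed signals overlapped as well for 7 Kupffer cell markers (1495 to 1996 in control, 1519.7 to 1806 in treated), 7 stellate cell markers (1893 to 2439.5 and 2104 to 2236), 5 endothelial markers (1761 to 2030.3 and 1986 to 2115), 3 red blood cell markers (3959 to 4192 and 3479 to 5194) and 4 lymphocyte markers (76.5 to 116 and 79.0 to 105). A sum can hide single markers. Among the endothelial ones Eng was lower without overlap (log2 -0.45 ± 0.12, SE, limma adjusted p = 0.222). Lyve1 was higher without overlap (0.31 ± 0.14, adjusted p = 0.429), and the other endothelial markers overlapped. All 7 Kupffer cell markers overlapped, 5 of them below 0 and 2 above. The smallest p among them was that of Clec4f (log2 -0.33 ± 0.13, limma adjusted p = 0.419). It had 516, 430 and 554 in the controls against 413, 339 and 447 with treatment. The sum over 3 cholangiocyte markers did not overlap, at 87.6 to 111 in control and 143 to 167 in treated livers. Epcam made most of it (67.1, 83.1 and 95.1 against 138, 107 and 134, limma adjusted p = 0.22), while Krt19 overlapped and Krt7 was dim on all arrays. The part of cell makeup in the differences above was not tested.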

How the data were processed

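Liver RNA of 3 control and 3 treated rats was hybridised to 1-colour Affymetrix arrays, 1 per rat. The deposited intensity values are linear MAS5 signals, the tool being named in the submitters' processing notes (version not given in the sources used here). The arrays share nearly the same mean after trimming 2% at each end. Of 31099 probe sets, 57 controls were left out, and 15778 with a signal above the array median on at least 3 of 6 arrays were kept. Log2 signals, with no pseudocount, entered limma 3.58.1 (R 4.3.3, eBayes with intensity trend), p-values were adjusted after Benjamini and Hochberg across the kept probe sets, and 0.05 was the threshold. The code was tested on simulated data.

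Platform annotation gave 20826 probe sets 1 symbol, 436 several and 9780 none. The brightest kept probe set stood for a gene. Equal brightness means the 200 non-member genes nearest in mean log2 signal, whose median difference was subtracted. Array values are printed for members whose groups did not overlap, the 2 smallest p-values of each role group, and a set of classical genes. For each related list the 2 smallest p-values are named. The members and lists were chosen with earlier results of these data known, and the brightness bands above 4000 after the values were seen. Array number limits the precision.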

Additional observations from a re-analysis of the deposited data

How the results depend on the processing

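The alternatives changed the filter, scaling, pseudocount (16), variance model, array weights, gene representation, neighbours in brightness and arrays left out. No member passed the adjusted threshold in limma in any of them except under the replicate block. With the replicate number as a block, 1 gene passed, Hamp (log2 difference -1.26, adjusted p = 0.0179). The labels number the rats but do not say whether same-numbered rats were paired. Same-numbered arrays had correlations of deviations of -0.10, 0.10 and -0.06, and control replicate 2 alone correlated best with its own number. Deviations within a group of so few arrays are tied to each other, so these correlations cannot decide whether the rats were paired. Hamp was lowest in replicate 1 and highest in replicate 2 of both groups. The SE of its difference was 0.58 without the block and 0.11 with it.

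Against 17 genes lower at an unadjusted p under 0.05, the count was 8 with no filter, 7 with quantile normalization, 10 with median centring and 7 with eBayes without trend, and 7 to 19 when 1 array was left out. The 20 genes lower without overlap became 9 with quantile normalization and 13 with median centring, where 7.91% and 7.21% of all genes lay lower without overlap. The median of the list stayed below 0 in each setting run, from -0.19 to -0.06, and relative to equal brightness from -0.13 to -0.06. Median centring and quantile normalization moved the median of all genes from -0.01 to 0.02 and 0.01.

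Of the single-gene comparisons with an alternative, 682 kept their direction and side of the threshold, 20 changed sign and 1 newly passed. Where only the filter, the variance model or the block changed, the log2 difference stays the same by construction. Those comparisons could change only their side of the threshold. With quantile normalization the sign turned for Hp (0.0104), Hrg (0.0019), Fetub (0.0720), Fga (0.0386), Serpinc1 (0.0044), Cp (0.0057), Orm1 (0.0162) and Serping1 (0.0152). It turned for Serpinf2 with median centring (0.0016) and for Cp with the mean of all its probe sets (0.0591). With 1 array left out the range included 0 for Masp1 (-0.0613 to 0.13), F5 (-0.0117 to 0.28), Lbp (-0.18 to 0.24), Amotl2 (-0.12 to 0.10), C8a (-0.0407 to 0.0803), Serpinf2 (-0.10 to 0.0347) and F10 (-0.13 to 0.0205). The cause was not tested. The median standard error of the members was 0.08, beside a median difference of -0.14.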
